A study of Mus musculus with 8 samples.

Results

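The genes described are 7 that control muscle transcription in the heart: Srf, Myocd, Mef2a, Mef2c, Mef2d, Tead1 and Smyd1. They were taken by symbol and matched to Entrez gene IDs, and all 7 were found among the 27179 genes counted. RNA was sequenced from whole mouse hearts at E10.5, when the heart has looped and its chambers are forming. By the labels, 3 hearts were Kat6a KO (Kat6a-/-, both alleles lost) and 5 were Kat6a WT (Kat6a+/+). The enzyme encoded by Kat6a, MOZ, acetylates histones. The labels name no treatment, and neither they nor the design text give the strain, sex or litter of the hearts or the part of Kat6a that the allele removes. The comparison asks what loss of Kat6a does to the RNA of these regulators and of the genes around them.

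SRF is a DNA-binding protein of the MADS-box family that recognises the CArG box. On muscle genes it works with myocardin, the product of Myocd, a coactivator that does not bind DNA by itself, and on growth-response genes with ternary complex factors of the ETS family. The MEF2 proteins are MADS-box factors too and bind A/T-rich sites of muscle genes. Among them MEF2C is known for its part in looping and in forming the right ventricle of the mouse. TEAD1 binds the M-CAT element and uses the Hippo pathway coactivators YAP and TAZ. SMYD1 is a muscle-restricted protein with SET and MYND domains, needed for ventricle growth in the mouse, where Mef2c acts upstream of it.

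Counts per heart ranged from 19911803 to 34539787. Values are given as CPM (reads of a gene relative to the scaled library total) and differences as log2 fold changes of Kat6a KO over Kat6a WT with their standard error (SE). The count over Kat6a did not separate the groups, with 133 to 141 CPM in Kat6a KO and 139 to 156 CPM in Kat6a WT hearts. Since the deleted part is unknown, the genotype labels could not be checked by it, and groups are as labelled throughout. Xist RNA, which marks female cells, was abundant in Kat6a WT replicates 4 and 5 (306 CPM in replicate 4) and reached at most 0.372 CPM elsewhere. The tissue label was met by cardiomyocyte markers: the 8 listed summed to between 29480 and 33270 CPM in Kat6a KO and between 28350 and 30020 CPM in Kat6a WT hearts, and 2 of them rose, Tnni3 and Ryr2. Skeletal muscle markers were near 0: the 8 listed summed to between 0.602 and 1.53 CPM in Kat6a KO and between 0.643 and 1.20 CPM in Kat6a WT hearts, Myf5 was at 0 in every heart, and Myod1 was at 0 in all Kat6a KO hearts and reached at most 0.0479 CPM among Kat6a WT hearts. Of 6 epicardial markers 4 fell, with sums of 252 to 296 CPM in Kat6a KO and 360 to 407 CPM in Kat6a WT hearts, and 5 of 6 macrophage markers rose, with sums of 16.9 to 22.7 CPM in Kat6a KO and 4.43 to 12.3 CPM in Kat6a WT hearts. The part of these cell types in the results below was not tested. In whole hearts, fewer cells of a type and less RNA per cell cannot be told apart. Markers said to rise or fall had an adjusted p under 0.05 in the edgeR quasi-likelihood test. By that test 1.44% of all tested genes rose and 1.23% fell.

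Of the 7 regulators, Srf fell in Kat6a KO hearts and the other 6 did not pass the threshold, which was 0.05 for the adjusted p of the edgeR quasi-likelihood test. All 7 passed the filter on low counts. The background for this count is 2.67% of the 15086 genes tested, with 1.44% higher and 1.23% lower in Kat6a KO hearts. At an unadjusted p of 0.05, 2 of the 7 passed (Srf and Tead1), against 14.2% of all genes. Srf was also the member whose hearts did not overlap between the genotypes, which held for 9.59% of all genes tested (4.77% higher and 4.81% lower in Kat6a KO). Of the 7 fold changes, 4 were below 0 and 3 above, with a median of -0.06.

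**Figure D1:**
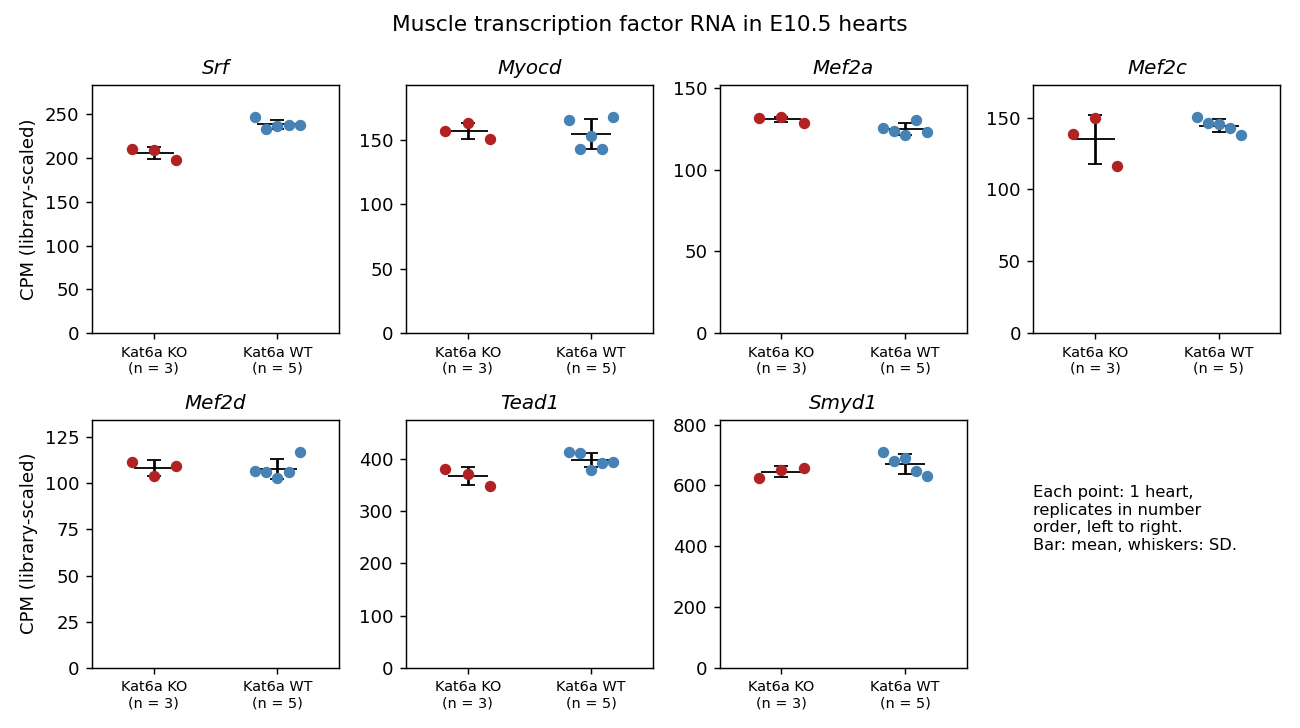
CPM of the 7 regulators in each heart, Kat6a KO (red, n = 3) beside Kat6a WT (blue, n = 5), with the mean and SD; every axis starts at 0. All 3 Kat6a KO values of Srf lie under the 5 Kat6a WT values, while the groups overlap for the other 6 genes and 1 Kat6a KO heart is low for Mef2c.

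Srf (Entrez gene 20807, chromosome 17, 46546838 to 46558267, mm10) had 210.0, 209.5 and 197.9 CPM in Kat6a KO replicates 1 to 3, against 246.8, 233.9, 237.4, 237.8 and 237.5 CPM in Kat6a WT replicates 1 to 5. The highest Kat6a KO heart thus stayed under the lowest Kat6a WT heart. The log2 fold change was -0.21 ± 0.04 (SE), a change of -13.8%, with a 95% interval of -0.30 to -0.12 and the adjusted p was 0.00708 by the quasi-likelihood test of edgeR. The spread among hearts was small, with a coefficient of variation of 3.33% in Kat6a KO and 2.02% in Kat6a WT. Kat6a KO replicate 3 was the lowest heart, and without it the log2 fold change was -0.19 with an adjusted p of 0.0543, so that the call was lost. Leaving out any other single heart kept it past the threshold, and with both Xist-positive hearts removed the adjusted p was 0.0250.

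The Srf promoter is shown because it carries the site that SRF itself binds. The 250 bases before the RefSeq start of Srf (GRCm38.p6, the assembly of mm10, chr17:46556163-46556412, minus strand) are printed 5′ to 3′ with the CArG boxes in capitals.
Srf: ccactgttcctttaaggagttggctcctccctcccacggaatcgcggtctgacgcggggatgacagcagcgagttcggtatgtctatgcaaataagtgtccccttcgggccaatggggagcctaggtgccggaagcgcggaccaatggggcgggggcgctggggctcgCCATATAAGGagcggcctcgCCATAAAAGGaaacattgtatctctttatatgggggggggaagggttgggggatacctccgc
The CArG boxes begin 82 and 62 bases before the start. The pattern searched was CC, 6 bases that are A or T, and GG, which reads alike on both strands. It was found in 482 of 32851 RefSeq promoter windows of this length (1.47%), and at least 2 matches were found in 6 windows (0.0183%), of which Srf was 1. A match is a string of letters and not a measured binding site. Srf was the only member with a CArG match among the 5 with a promoter in the table; Myocd and Tead1 had none listed there.

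Myocd (Entrez gene 214384, chromosome 11, 65173608 to 65269989), the coactivator of SRF in cardiac and smooth muscle, had 156.6, 163.3 and 150.6 CPM in Kat6a KO replicates 1 to 3, against 165.1, 142.9, 152.8, 143.0 and 167.5 CPM in Kat6a WT replicates 1 to 5. The 3 Kat6a KO values lay inside the Kat6a WT range. The log2 fold change was 0.02 ± 0.06 (SE), with a 95% interval of -0.09 to 0.14 and an adjusted p of 0.911, and its sign turned on leaving out Kat6a KO replicate 2 (-0.0057) or Kat6a WT replicate 2 or 4 (-0.0026 each). The interval excludes a fall in Myocd as large as the estimate for Srf. The widest spread among Kat6a WT hearts of the 7 genes was that of Myocd, with a coefficient of variation of 7.61%.

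The MEF2 genes differed little in their totals. Mef2a (Entrez gene 17258, chromosome 7, 67231163 to 67376456) had 131.6, 132.2 and 128.9 CPM in Kat6a KO replicates 1 to 3, against 125.8, 124.0, 121.4, 130.5 and 122.9 CPM in Kat6a WT replicates 1 to 5. Kat6a KO replicates 1 and 2 were above every Kat6a WT heart, replicate 3 was under Kat6a WT replicate 4, and the difference of 0.07 ± 0.04 did not pass (adjusted p = 0.545). Mef2d (Entrez gene 17261, chromosome 3, 88141941 to 88172091) had 111.8, 103.8 and 109.5 CPM in Kat6a KO replicates 1 to 3, against 106.8, 106.3, 103.1, 106.3 and 117.0 CPM in Kat6a WT replicates 1 to 5. The groups overlapped over the whole Kat6a KO range, and the log2 fold change was 0.007 ± 0.05 (95% interval -0.10 to 0.11, adjusted p = 0.972). Its sign turned without Kat6a KO replicate 1 or 3 or Kat6a WT replicate 3. Mef2d shares 532 bases with the tested long noncoding gene 1700113A16Rik, so reads there could belong to either.

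Mef2c (Entrez gene 17260, chromosome 13, 83504017 to 83667079) varied most among the Kat6a KO hearts. It had 138.8, 149.9 and 116.1 CPM in Kat6a KO replicates 1 to 3, against 150.3, 146.1, 145.6, 142.6 and 138.0 CPM in Kat6a WT replicates 1 to 5. Kat6a KO replicate 3 was under all other hearts, while the other 2 Kat6a KO hearts lay within the Kat6a WT range. The coefficient of variation was 12.8% in Kat6a KO and 3.16% in Kat6a WT. The log2 fold change of -0.10 ± 0.06 (95% interval -0.23 to 0.03) did not pass (adjusted p = 0.530), and without Kat6a KO replicate 3 it was -0.0038. Several other genes given here were also lowest in that heart, among them Srf, Tead1, Lats2 and Vcl. Others were highest in that heart, among them Camk2d, Tpm1, Fhl2, Tead2, Actc1 and Ckm. In it, among well expressed genes (average log2 CPM of at least 5), the fifth with the longest genes had a median deviation of -0.04 on the log2 scale from their mean over the 8 hearts, and the fifth with the shortest genes one of 0.044. In the other 7 hearts these medians lay between -0.028 and 0.039 for the longest and between -0.043 and 0.04 for the shortest genes, and the part of length in the values of Mef2c was not tested.

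Tead1 (Entrez gene 21676, chromosome 7, 112679356 to 112906784) had 380.3, 371.5 and 347.0 CPM in Kat6a KO replicates 1 to 3, against 412.7, 410.6, 379.3, 392 and 392.9 CPM in Kat6a WT replicates 1 to 5. The groups overlapped through 1 pair of hearts, Kat6a KO replicate 1 lying just above Kat6a WT replicate 3. The log2 fold change was -0.12 ± 0.05 (SE), with a 95% interval, not adjusted for the number of genes, of -0.21 to -0.02, and it did not pass over all genes (adjusted p = 0.231, edgeR quasi-likelihood test). Tead1 stayed short of the threshold under each of the 14 alternative settings, with log2 fold changes of -0.15 to -0.08 and adjusted p of 0.158 to 0.533.

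Smyd1 (Entrez gene 12180, chromosome 6, 71213940 to 71262281) had 623.8, 652.5 and 657.4 CPM in Kat6a KO replicates 1 to 3, against 710.1, 682.1, 689.7, 647.4 and 630.2 CPM in Kat6a WT replicates 1 to 5. The Kat6a KO values lay within or just under the lower part of the Kat6a WT range. The log2 fold change of -0.06 ± 0.05 (95% interval -0.16 to 0.04) did not pass (adjusted p = 0.638).

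**Figure D2:**
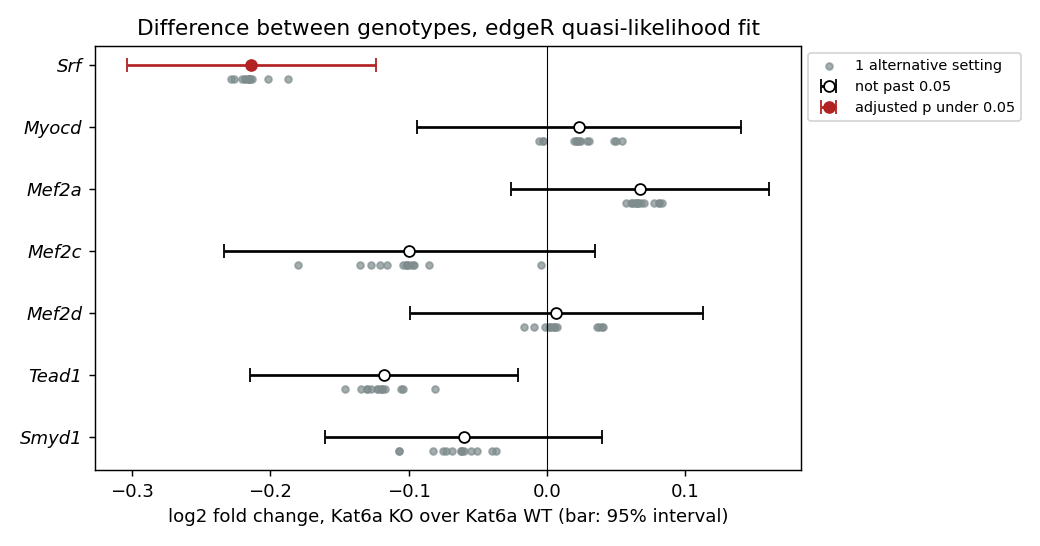
Log2 fold change of Kat6a KO over Kat6a WT for the 7 regulators with its 95% interval (circle and bar; red where the adjusted p is under 0.05), and the same value under each of 14 alternative settings (grey points). Srf stays between -0.23 and -0.19 throughout, and Myocd and Mef2d have points on either side of 0.

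Levels can be compared between genes only per length, as RPKM (CPM per kilobase of the deposited gene length). Smyd1 was the most abundant of the 7, with 191.8 ± 5.39 RPKM in Kat6a KO and 199.9 ± 9.68 RPKM in Kat6a WT hearts (SD, n = 3 and n = 5). Srf came next with 50.3 ± 1.67 RPKM in Kat6a KO and 58.3 ± 1.17 RPKM in Kat6a WT. Mef2d and Mef2a followed at 44.1 ± 1.67 and 45.5 ± 0.62 RPKM in Kat6a KO, and at 43.9 ± 2.15 and 43.4 ± 1.21 RPKM in Kat6a WT. This pair could not be ordered: Mef2d was above Mef2a in 2 of 8 hearts, and their ranges overlapped. Tead1 stood at 36.8 ± 1.73 RPKM in Kat6a KO and 39.9 ± 1.41 RPKM in Kat6a WT, Myocd at 30.6 ± 1.24 and 30.1 ± 2.29 RPKM, and Mef2c lowest at 20.6 ± 2.63 and 22.01 ± 0.693 RPKM. All other neighbours kept their order in 8 of 8 hearts with no overlap of their ranges, so that the order of levels was shared by both genotypes. The lengths are those of the deposited table and would change the levels if the hearts use shorter transcripts.

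**Figure D3:**
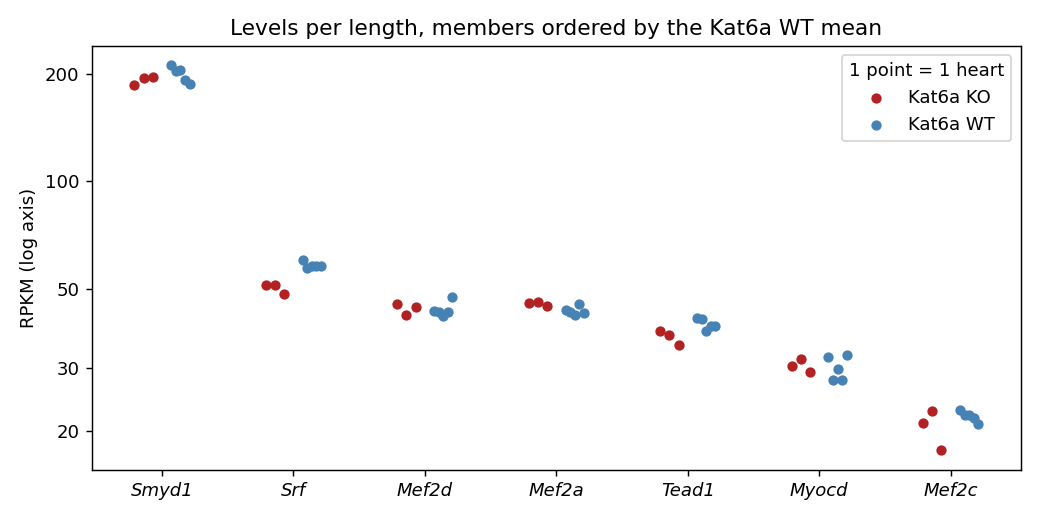
RPKM of the 7 regulators in each heart on a log axis, Kat6a KO (red) left of Kat6a WT (blue), ordered by the Kat6a WT mean. Smyd1 stands near 200 RPKM and Mef2c near 20, and Mef2d and Mef2a overlap.

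Summed per length, the MEF2 genes reached 110.1 ± 2.78 RPKM in Kat6a KO and 109.3 ± 1.94 RPKM in Kat6a WT hearts. Mef2c, the best known of them in the heart, made the smallest share, 18.6 ± 2.03% of the sum in Kat6a KO and 20.1 ± 0.845% in Kat6a WT. Mef2a made 41.3 ± 0.571% in Kat6a KO and 39.7 ± 0.970% in Kat6a WT, and Mef2d 40.03 ± 1.83% and 40.1 ± 1.48%. The lowest Mef2c share was 16.5%, in Kat6a KO replicate 3. In whole hearts these shares mix cardiomyocytes with all other cells, which also express MEF2 genes.

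The genes that work with these regulators were counted in 8 lists of cofactors, regulators, paralogs, targets and partners. Of 89 genes, 87 were tested (Vgll2 and Egr2 were under the count filter), and 7 rose and 6 fell, or 14.9% against 2.67% of all genes. The lists were chosen with earlier results of these data known. The share of 14.9% therefore describes the listed genes and cannot be read as an excess around these regulators. The median log2 fold change was 0.013 against -0.0001 over all genes tested. The count of 13 depended on single hearts, being 4 when Kat6a KO replicate 1 was left out and 8 when replicate 2 was, and it was 5 without the 2 hearts that had Xist RNA.

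Among 10 cofactors and regulators of SRF, Abra fell, the other 9 did not pass, and the median was 0.002. Abra encodes STARS, an actin-binding protein of striated muscle that activates SRF by way of the myocardin-related factors. It had 18.97, 20.94 and 17.54 CPM in Kat6a KO replicates 1 to 3, against 29.03, 27.29, 26.16, 26.06 and 29.90 CPM in Kat6a WT replicates 1 to 5. Every Kat6a KO heart was under every Kat6a WT heart, with a log2 fold change of -0.53 ± 0.08 and an adjusted p of 0.000942 (edgeR). The call held under all 14 alternative settings, with log2 fold changes of -0.60 to -0.48. The myocardin-related factor genes Mrtfa and Mrtfb had log2 fold changes of -0.06 ± 0.08 and -0.05 ± 0.06, and Hopx, a homeodomain protein that holds back SRF in the mouse heart, one of 0.11 ± 0.11, none past the threshold (adjusted p = 0.815, 0.813 and 0.730).

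Among 10 regulators of MEF2, Camk2d rose and 9 did not pass, with a median of -0.014. Camk2d encodes a calcium-dependent kinase that relieves MEF2 of class II histone deacetylases. It had 171.8, 163.4 and 173.8 CPM in Kat6a KO replicates 1 to 3, against 143.1, 155.3, 150.9, 141.5 and 151.9 CPM in Kat6a WT replicates 1 to 5. No value of one genotype lay in the range of the other, and the log2 fold change was 0.19 ± 0.05 (adjusted p = 0.0263). It lost the call on leaving out Kat6a KO replicate 1 or 3 or Kat6a WT replicate 3 or 4 (adjusted p up to 0.147) and with both Xist-positive hearts removed (0.0874). The deacetylase genes Hdac4, Hdac5 and Hdac9 had log2 fold changes of -0.07 ± 0.09, -0.10 ± 0.06 and -0.01 ± 0.08, with adjusted p of 0.786, 0.506 and 0.969.

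Of 11 tested TEAD paralogs and Hippo genes 0 passed in either direction in the edgeR quasi-likelihood test, and 9 of 11 fold changes were below 0 (median -0.049). At an unadjusted p of 0.05, Tead4 and Lats2 passed among these 11, where 14.2% of all genes did. Lats2, a kinase that restrains YAP and TAZ, had the smallest p, with 71.05 ± 6.92 CPM in Kat6a KO and 80.3 ± 4.25 CPM in Kat6a WT hearts (log2 fold change -0.18 ± 0.06, adjusted p = 0.177). Tead4 stood at 10.1 ± 1.03 CPM in Kat6a KO and 12.0 ± 0.66 CPM in Kat6a WT (adjusted p = 0.298). Yap1 and Wwtr1, which encode YAP and TAZ, had log2 fold changes of -0.02 ± 0.04 and 0.01 ± 0.05. Per length, Tead2 was the most abundant TEAD gene, with 92.5 RPKM in Kat6a KO and 92.9 RPKM in Kat6a WT hearts, above Tead1, while Tead3 had 9.47 and 8.89 RPKM and Tead4 3.28 and 3.89 RPKM. Of the 6 SMYD family and partner genes 0 passed in the same edgeR test. At an unadjusted p of 0.05, Ubr4 alone of the 6 did (14.2% of all genes), with 0.14 ± 0.05 (adjusted p = 0.218). Smyd3, another methyltransferase of the family, had 0.19 ± 0.12 (adjusted p = 0.528). Naca, whose muscle isoform skNAC binds SMYD1, had a log2 fold change of 0.02 ± 0.05, and a count over the gene does not separate that isoform.

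Among the textbook muscle targets of these factors, more rose than fell, in lists chosen with earlier results of these data known. The smooth muscle markers read were Acta2, Myh11, Tagln, Cnn1 and the member Myocd. They summed to between 3526 and 3587 CPM in Kat6a KO and between 2852 and 3532 CPM in Kat6a WT hearts. Acta2 made most of this sum, with 2338 ± 38.5 CPM in Kat6a KO and 2156 ± 189 CPM in Kat6a WT hearts. Myh11 was low in both groups, at 3.67 ± 0.505 CPM in Kat6a KO and 3.04 ± 1.86 CPM in Kat6a WT. Its Kat6a KO range of 3.25 to 4.23 CPM lay inside the Kat6a WT range of 1.62 to 5.66 CPM. All of these markers but Myocd are also smooth muscle targets here, so their sum is no separate measure of smooth muscle cells. Which cells of the heart made this RNA was not tested. Of 12 smooth muscle targets 2 rose, 1 fell and 9 did not pass (median 0.039), and of 20 cardiac muscle targets 4 rose, 0 fell and 16 did not pass (median 0.128, with 17 of 20 above 0). Over all 15086 genes tested, 1.44% rose, 1.23% fell and 7535 were above 0. The cardiomyocyte markers, which share Tnnt2, Actc1, Myh6, Myh7 and Ttn with the cardiac targets, had a median of 0.165 with 6 of 8 above 0. Tagln, which encodes the actin-binding protein SM22, had 666.5, 653.9 and 639.8 CPM in Kat6a KO replicates 1 to 3, against 571.7, 530.1, 521.5, 443.0 and 491.4 CPM in Kat6a WT replicates 1 to 5. All Kat6a KO hearts were above all Kat6a WT hearts, the log2 fold change was 0.35 ± 0.06 (adjusted p = 0.00377), and the call held under all 14 alternatives. Tagln shares 2480 bases with the tested gene Pcsk7, and reads there could belong to either gene. Cnn1, encoding calponin, rose by 0.23 ± 0.05 (adjusted p = 0.00908), and its call was lost without Kat6a KO replicate 1 (0.0851) and with both Xist-positive hearts removed (0.0674). Csrp2, a LIM domain protein of smooth muscle, fell by 0.20 ± 0.05, a call lost when Kat6a KO replicate 1 or 2 or Kat6a WT replicate 3, 4 or 5 was left out (adjusted p up to 0.227) and with both Xist-positive hearts removed (0.202). Acta2, smooth muscle actin, had 0.12 ± 0.06 and did not pass (adjusted p = 0.384).

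Among the cardiac muscle targets, the tropomyosin gene Tpm1 had 3798, 3758 and 3847 CPM in Kat6a KO replicates 1 to 3, against 3367, 3164, 3274, 2974 and 3172 CPM in Kat6a WT replicates 1 to 5, with no overlap (log2 fold change 0.25 ± 0.05, adjusted p = 0.00442), and the call held under 13 of the 14 alternatives. Casq2, which encodes the calcium store protein calsequestrin, had 34.3, 32.4 and 29.06 CPM in Kat6a KO replicates 1 to 3, against 19.9, 28.06, 23.4, 19.4 and 22.3 CPM in Kat6a WT replicates 1 to 5. Its log2 fold change was 0.50 ± 0.10 (adjusted p = 0.0109), and the call did not hold when Kat6a KO replicate 1 (0.102) or 2 (0.0572) was left out or with both Xist-positive hearts removed (0.0607). Ckm, the muscle creatine kinase and a classical MEF2 target, rose from a low level, with 4.75 ± 0.935 CPM in Kat6a KO and 2.40 ± 0.657 CPM in Kat6a WT hearts (log2 fold change 1.00 ± 0.22, adjusted p = 0.0123). That call did not hold when Kat6a KO replicate 1 (0.0759) or 3 (0.0994) was left out. Srl, a calcium-binding protein of the sarcoplasmic reticulum, rose by 0.24 ± 0.06 (adjusted p = 0.0263), a call lost when Kat6a KO replicate 1 or 3 or Kat6a WT replicate 1, 3, 4 or 5 was left out (up to 0.214), or both hearts with Xist RNA (0.140). Cardiac actin, Actc1, and the natriuretic peptide gene Nppa had log2 fold changes of 0.05 ± 0.05 and -0.02 ± 0.13 and did not pass (adjusted p = 0.728 and 0.963).

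**Figure D4:**
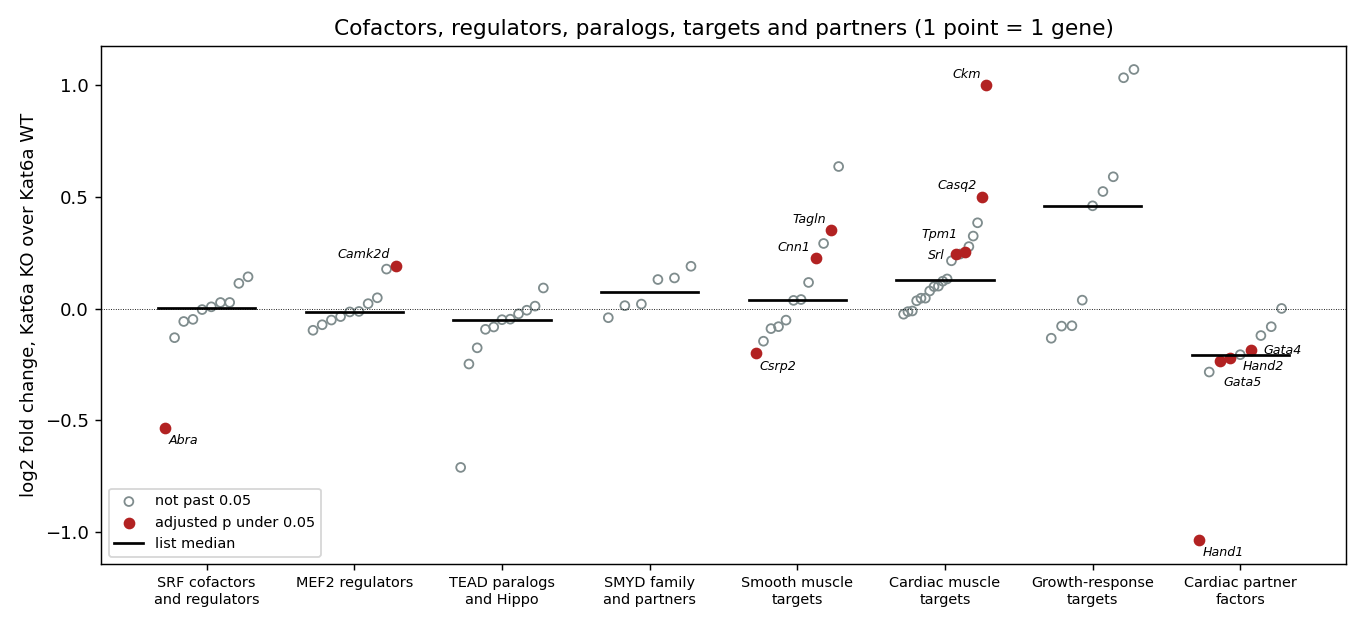
Log2 fold change of Kat6a KO over Kat6a WT for each tested gene of the 8 lists (points; red and named where the adjusted p is under 0.05) with the median of each list (line). The cardiac muscle targets lie mostly above 0 and the cardiac partner factors mostly below.

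Several growth-response targets of SRF and YAP were high in a single heart. Of 9 tested, 0 passed in the edgeR quasi-likelihood test, and their median was 0.46. At an unadjusted p of 0.05 only Ajuba did (14.2% of all genes), with a log2 fold change of -0.13 ± 0.06 (adjusted p = 0.267). Egr1, an immediate early gene, had 55.7, 12.4 and 13.99 CPM in Kat6a KO replicates 1 to 3, against 12.9, 15.3, 10.99, 13.7 and 13.5 CPM in Kat6a WT replicates 1 to 5. Ccn2, a matricellular growth factor gene chosen after its values were seen, had 257, 72.9 and 61.4 CPM in Kat6a KO replicates 1 to 3, against 51.3, 87.6, 61.8, 64.2 and 57.7 CPM in Kat6a WT replicates 1 to 5. Both were high in Kat6a KO replicate 1 and within or close to the Kat6a WT range in the other Kat6a KO hearts, and without that heart the log2 fold change of Egr1 was -0.0059 and that of Ccn2 0.06. Genes that respond to the handling of tissue, a list of 10 that shares Fos, Junb, Egr1 and Ier2 with this one, summed to between 1062 and 1414 CPM in Kat6a KO and between 1088 and 1188 CPM in Kat6a WT hearts, and 0 of 10 passed. Most of that sum was Hspa8, with 836 ± 99.6 CPM in Kat6a KO and 860 ± 27.7 CPM in Kat6a WT. Jun and Fos stood at 227.7 and 16.9 CPM in Kat6a KO replicate 1, against at most 143.4 and 7.90 CPM in Kat6a WT. Junb, Hspa1b and Dnajb1 exceeded their highest Kat6a WT value in no Kat6a KO heart. Srf, itself known as a serum-induced gene, was at 210.0 CPM in Kat6a KO replicate 1, close to the 209.5 CPM of replicate 2, and without replicate 1 its log2 fold change was -0.23 (adjusted p = 0.0336).

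**Figure D5:**
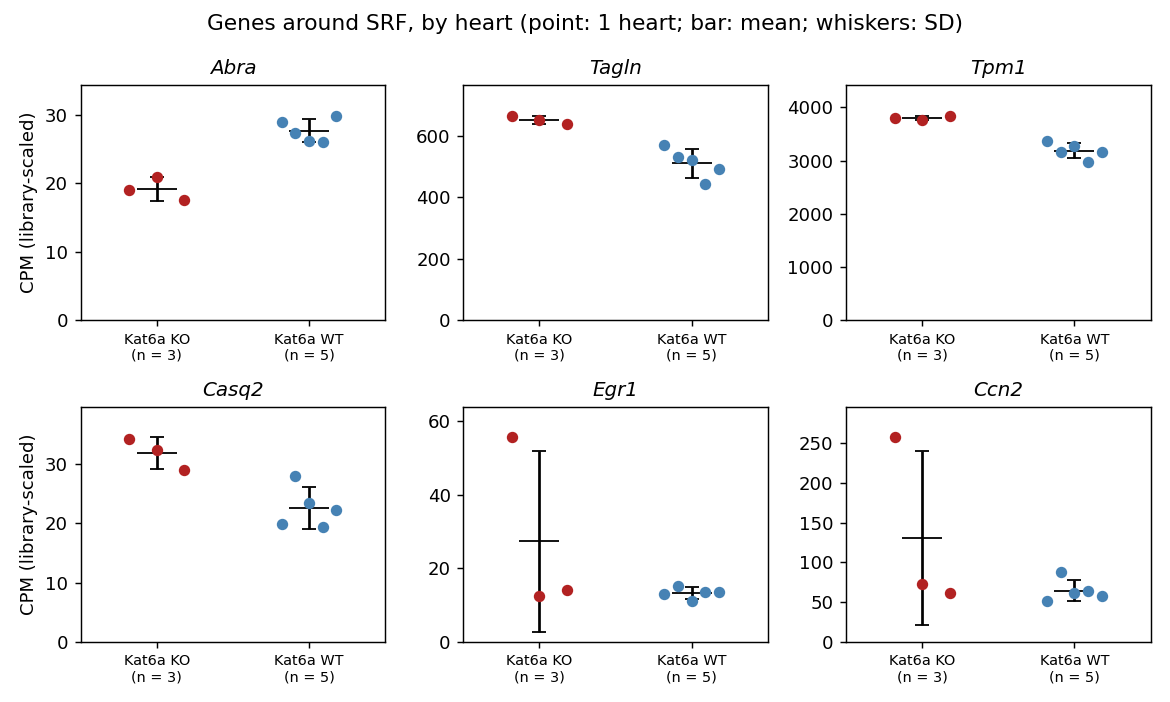
CPM in each heart of Abra, Tagln, Tpm1, Casq2, Egr1 and Ccn2, Kat6a KO (red) beside Kat6a WT (blue), with the mean and SD; every axis starts at 0. Abra is lower and Tagln, Tpm1 and Casq2 are higher in all 3 Kat6a KO hearts, while Egr1 and Ccn2 are high in Kat6a KO replicate 1 alone.

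Cardiac factors that act beside SRF and the MEF2 proteins fell in part. Of 9 such partners 4 fell, 0 rose and 5 did not pass, with a median of -0.206, while over all genes tested 1.23% fell and 1.44% rose. This list too was chosen with earlier results of these data known, so its count describes the listed genes only. Hand1 fell most, with 40.5, 45.3 and 43.4 CPM in Kat6a KO replicates 1 to 3, against 90.9, 104, 86.3, 83.3 and 76.2 CPM in Kat6a WT replicates 1 to 5 (log2 fold change -1.04 ± 0.09, adjusted p = 1.47e-05), a call that held under all 14 alternatives. The other 3, Gata4, Gata5 and Hand2, had log2 fold changes of -0.19 ± 0.04, -0.23 ± 0.06 and -0.22 ± 0.06, in the range of Srf. Gata4 and Gata5 lost their calls when Kat6a KO replicate 1 or 2 or Kat6a WT replicate 5 was left out (adjusted p up to 0.136 and 0.220), and Hand2 when any heart but Kat6a WT replicate 3 was (up to 0.221), and all 3 lost them without the hearts that had Xist RNA (0.0962, 0.110 and 0.147). Gata5 overlaps the tested antisense gene Gata5os.

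CArG matches were also found before genes of the lists. Those of 7 tested genes are shown, with 8 bases on each side, so that the letters can be set beside the values of these genes. The genes were taken for the match and not by the rule for named genes.
Actc1 (chromosome 2): taaggcgaCCAAATAAGGcaaggtgg
Acta1 (chromosome 8): cccgacacCCAAATATGGcttgggaa
Myl7 (chromosome 11): attcctctCCTTATTTGGgcctctgg
Myom1 (chromosome 17): cttcctggCCATAAAAGGctggctgt
Myl9 (chromosome 2): agcagaggCCTAATAAGGccgggctg
Vcl (chromosome 14): cactatgcCCTTATAAGGagcgcccc
Hopx (chromosome 5): acccgagtCCAAATAAGGaagctggg
Capitals mark the CArG box, read on the strand of the gene. Of the 20 cardiac muscle targets 18 had a promoter in the table, and 4 of them held a match (22.2%). Of the 12 smooth muscle targets 8 had one, and 2 held a match (25%). None of these 7 genes passed the threshold: their log2 fold changes were 0.05 for Actc1, 0.38 for Acta1, 0.10 for Myl7, 0.10 for Myom1, 0.04 for Myl9, -0.09 for Vcl and 0.11 for Hopx. Acta1, skeletal actin, which the embryonic heart also makes, came closest, with 722 ± 48.4 CPM in Kat6a KO and 553 ± 71.4 CPM in Kat6a WT hearts (adjusted p = 0.0990). Its hearts did not overlap, and it passed under 3 of the 14 alternatives. Fhl2, a LIM domain cofactor of SRF with a match in each of 2 promoters, had a log2 fold change of 0.14 ± 0.05 (adjusted p = 0.142). The growth-response gene Egr2, which was under the count filter, also held CArG matches.

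Over all genes, 172 of the 11425 tested genes with a promoter in the table held a CArG match. Of these 3 rose and 6 fell, or 5.23% against 2.56% of all 11425, and their median log2 fold change was -0.021 against -0.001. Besides Srf, those that fell were Myo1e, Ripor2, Arid3b, Ppif and Cnn2, and those that rose were Myl3, Dmd and Prune2, named after their values were seen. Myl3, a myosin light chain gene, had 2043 ± 83.7 CPM in Kat6a KO and 1697 ± 130 CPM in Kat6a WT hearts (log2 fold change 0.27 ± 0.06, adjusted p = 0.0105), and Dmd, encoding dystrophin, had 54.7 ± 2.53 CPM in Kat6a KO and 44.8 ± 2.73 CPM in Kat6a WT (0.29 ± 0.06, adjusted p = 0.0125). Of those that fell, Myo1e had 22.6 ± 1.88 CPM in Kat6a KO and 31.3 ± 2.56 CPM in Kat6a WT (-0.47 ± 0.08, adjusted p = 0.00303). Arid3b had 89.2 ± 4.255 CPM in Kat6a KO and 111 ± 7.30 CPM in Kat6a WT (-0.32 ± 0.06, adjusted p = 0.00254, edgeR quasi-likelihood test). Genes with a match thus changed both ways. The MEF2 pattern, found in 2.92% of windows, preceded 236 tested genes, of which 9 rose and 5 fell (5.93%, median 0.021). Of the 18 cardiac muscle targets with a promoter 2 held it, shown with the pattern in capitals.
Casq2 (chromosome 3): tgcatgatTTATTTTTAGctcgaaac
Ttn (chromosome 2): ctgaaaggCTAAATTTAGcactgcca
The matches begin 69 bases before the start of Casq2, which rose, and 166 bases before that of Ttn, which encodes titin and did not pass (log2 fold change 0.21 ± 0.06, adjusted p = 0.0952). Of the other lists, Fhl2, Mrtfb and Hdac5 held the MEF2 pattern, and none of these passed. The M-CAT letters CATTCC, on either strand, were found in 12.6% of windows and preceded 1487 tested genes, of which 33 rose and 23 fell (3.77%, median -0.003). They preceded 8 of 18 cardiac muscle targets (44.4%) and 5 of 8 smooth muscle targets (62.5%), and of these genes Tpm1 alone passed the threshold. Among the members, Mef2c held 1 M-CAT match, in 1 of its 3 promoters. The 3 patterns were counted separately, and a window can hold more than 1.

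Likeness was measured over the 8 hearts as the root mean square difference in centred log2 CPM, among named genes that vary at least as much as the member. Nearest to Srf were Zdhhc12 (0.044) and Lrp11 (0.045), which had log2 fold changes of -0.20 and -0.28 and did not pass. Nearest to Mef2c were Uba6 (0.053) and Dpy19l4 (0.057), and nearest to Tead1 were Slc7a6 and Dnaja1 (0.030 each). For Myocd they were Melk (0.021) and Thsd4 (0.030), for Mef2a Morc2a (0.013) and Npat (0.025), for Mef2d Irs1 (0.023) and Zfp687 (0.026), and for Smyd1 Actr3 (0.030) and Kat5 (0.032). None of these genes is another member or a gene of the 8 lists.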

How the data were processed

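The TruSeq stranded kit was used, per the labels' protocols, and reads were handled with bcl2fastq and counted with featureCounts on mm10, per the submitters' processing notes. Versions, the aligner, the annotation and the strand setting are named in none of these sources, so overlapping genes may share reads. The authors deposited raw counts for each Entrez gene, with a deposited gene length in bases (an other value, used for RPKM). Symbols, positions and promoters are from RefSeq GRCm38.p6: 25275 of 27179 IDs had a symbol. Overlaps were searched for 47 genes; 22 overlap another gene and 6 a tested one.

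With R 4.3.3 and edgeR 4.0.16, genes were filtered by filterByExpr (15086 kept), scaled by trimmed mean of M values and tested by the robust quasi-likelihood fit over all 8 hearts with no covariate, Kat6a KO (3) against Kat6a WT (5), with Benjamini-Hochberg adjustment over all genes. Each SE was taken as the size of the log2 fold change divided by the root of F. Adjusted p in the text are from this test. Replicate pairs differed by more than counting noise (chi-square per degree of freedom 8.29 to 29). Nothing says that hearts came from separate litters, and p-values measure only the spread between these hearts. The biological coefficient of variation was 9.10%.

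The members and gene lists were chosen with earlier results of these data known. Genes named were the 7 members; from each list all genes past the threshold, or the 2 of smallest p where none passed; a set fixed by name; and those stated as chosen otherwise. Cell type lists were read as sums and counts. Besides those given, 2 of 5 smooth muscle markers passed, both higher in Kat6a KO, and 3 of 7 endothelial markers, 2 higher and 1 lower. Of 7 erythroid, 3 tested neural and 2 tested liver markers 0 passed. Over all genes tested 2.67% passed. Alternatives were DESeq2 1.42.0, its size factors within edgeR, 2 other filters, a replicate block, leaving out each heart, and leaving out the 2 hearts with Xist RNA. The test was run on simulated counts with known changes before use.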

Additional observations from a re-analysis of the deposited data

Results flagged for a closer look

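Among the 5 Kat6a WT hearts, 2 of 47 genes searched had a heart that stood apart from the other 4 by more than Dixon's 95% critical value (0.710 of the range). Chance flags about 1 in 20 groups. Mef2d stood at 117 CPM in Kat6a WT replicate 5, against 103 to 107 CPM in the other 4, a gap of 0.738 of the range. Ubr4, a large ubiquitin ligase gene, stood at 285 CPM in the same heart, against 250 to 258 CPM in the other 4, a gap of 0.766 of the range.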

How the results depend on the processing

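The number of genes called changed with the tool and with single hearts, and the cause was not tested. DESeq2 called 580 genes, 290 higher and 290 lower in Kat6a KO, with 18 list genes, against 403, 217, 186 and 13 in edgeR. Leaving out each heart gave 194 to 496 genes called, 104 to 300 higher and 90 to 196 lower, with 194 when Kat6a KO replicate 1 and 260 when Kat6a KO replicate 3 was left out. Under these settings 0 to 1 members and 4 to 13 genes of the related lists were called, and 1 to 2 members did not overlap between groups. With both Xist-positive hearts removed, 114 genes were lower, 5 list genes were called and 3 members did not overlap; without the count filter 2 members did not overlap. Of the results for single genes, 577 kept their direction and side of the threshold, 52 lost their call, 3 gained it and 26 turned sign. Leaving out 1 heart turned the sign of Myocd (-0.0057 to 0.0544), Mef2d (-0.0163 to 0.0377), Egr1 (-0.0059 to 1.4098), Mrtfa (-0.1296 to 0.0075), Hdac9 (-0.0695 to 0.0517), Wwtr1 (-8e-04 to 0.0355), Tead2 (-0.0437 to 0.0122), Nppa (-0.1303 to 0.0864) and Vcl (-0.1738 to 0.0337). Without the hearts with Xist RNA, the log2 fold change was 0.0292 for Mrtfb, -0.0067 for Hopx and -0.009 for Wwtr1.

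Same-numbered hearts of the 2 genotypes had correlations of 0.066, -0.119 and -0.054 between their deviations, against -0.084 to 0.075 for hearts of different number. So few pairs cannot decide whether replicate numbers pair the hearts. A fit with the replicate number as a block called 181 genes, 104 higher and 77 lower. It called 0 members (Srf adjusted p = 0.0766, edgeR) and 5 list genes. It gave log2 fold changes of 0.0291 for Mrtfb, -0.0114 for Hopx and -0.0079 for Wwtr1. The Kat6a WT hearts with Xist RNA share a replicate number with no Kat6a KO heart. They therefore add nothing to the genotype difference in this fit. The log2 fold change of Srf was -0.2184 with the block and -0.2181 without those hearts. That of Mrtfb was 0.0291 and 0.0292. The part of pairing in the calls lost with the block was not tested. The list genes not called with the block were Tpm1 (adjusted p = 0.114), Casq2 (0.0970), Cnn1 (0.170), Camk2d (0.202), Gata5 (0.213), Gata4 (0.242), Hand2 (0.268), Srl (0.287) and Csrp2 (0.323) in edgeR.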
